A study of Mus musculus with 8 samples.

Results

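The comparison described here is that of Hif-p4h-1 knockout with wild-type mouse embryonic fibroblasts under hypoxia. It rests on 4 of the 8 arrays of the series, chosen by title: 2 knockout and 2 wild-type hypoxic arrays, of which 1 pair belongs to a first set and 1 pair carries the mark 2nd. Fibroblasts came from C57BL6/J embryos at E14.5. The wild type was Hif-p4h-1+/+ and the knockout Hif-p4h-1-/-. The other 4 arrays held the same genotypes in normoxia. The sources used here do not give the oxygen level, the length of the exposure or the number of embryos behind an array. Since no label ties the 2 arrays of a group to separate embryos or cultures, the p-values cover only the spread between arrays, part of which may be technical. Each genotype difference below is knockout minus wild type on the log2 scale, where 1 is a 2-fold difference, and is given within the first set, within the second set and as their mean ± SE from limma (2 arrays per group).

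HIF-P4H-1, encoded by Egln2, is one of the prolyl hydroxylases that use oxygen to tag the labile alpha chains of HIF, the hypoxia-inducible factor, for recognition by VHL and destruction. When oxygen is short the hydroxylases slow, HIF alpha accumulates, pairs with ARNT and drives genes of glucose uptake, glycolysis and vessel growth. Egln1 encodes the isoform with the main part in this control in most cells, and Egln3 and Egln1 are themselves HIF target genes. Cultures of embryonic fibroblasts can be mixed and carry macrophages and muscle precursors along with the stromal cells.

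Egln2 was read by 1 probe set, and whether it lies in the deleted part of the gene is not known, so it does not check the deletion itself. In hypoxia it stood at 8.95 and 9.13 in the wild-type arrays of the first and second set and at 8.66 and 8.85 in the knockout arrays. Both knockout arrays were below both wild-type arrays, by 0.29 and 0.28 within the sets, and the mean difference of -0.285 ± 0.089 did not pass the test (adjusted p = 0.725). In normoxia the same probe set fell by 0.84 and 0.73 within the sets (mean -0.785 ± 0.089, adjusted p = 0.0489). Knockout arrays rose from 8.0 and 8.34 in normoxia to the hypoxic levels above (0.585 ± 0.089, adjusted p = 0.00919), while the wild-type change was 0.085. The interaction, the hypoxic minus the normoxic genotype difference, was 0.50 ± 0.126 with an adjusted p of 1.

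The label of the cells was checked against 14 fibroblast markers, all tested. In the first and second set their mean level lay at 11.82 and 11.72 in the wild-type hypoxic arrays and at 11.59 and 11.57 in the knockout ones. Vim, the fibroblast filament vimentin, lay between 14.35 and 14.41 in the 4 hypoxic arrays, and Col1a2, a chain of type I collagen, between 14.19 and 14.46. Fibroblast markers tended to stand lower in the knockout. The list median difference was -0.13, with 6 members lower and 2 higher in both sets, against 24.3% and 24.6% of all genes. At an unadjusted p under 0.05 there were 5 lower (2.73% of all genes were) and none higher, and none was called. Pdgfra, the PDGF receptor of mesenchymal cells, stood at 9.87 and 8.80 in the wild-type arrays and at 9.11 and 8.29 in the knockout arrays. It was lower by 0.76 and 0.51 within the sets, but the arrays of the genotypes overlapped across sets (mean -0.635 ± 0.095, adjusted p = 0.206). Dcn, the proteoglycan decorin, stood lower by 0.35 and 0.37 (adjusted p = 0.596), Thy1 by 0.18 and 0.53 (adjusted p = 0.862) and Col3a1 by 0.20 and 0.16 (adjusted p = 0.707). The Y-linked gene Eif2s3y was read between 8.81 and 9.17 in all 4 hypoxic arrays.

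Of 13647 genes tested, 4 passed an adjusted p of 0.05 in hypoxia, which is 0.0293% of genes, and all 4 fell in the knockout. They were Pf4, Lyz1, Lyz2 and Itga6. No gene rose. At an unadjusted p under 0.05 there were 373 lower and 380 higher genes, together 5.52% of those tested. In normoxia 5 genes (0.0366%) were called, and Pf4, Lyz1 and Lyz2 were among them. No gene was called for the interaction by limma (0.0%), with 329 (2.41%) at an unadjusted p under 0.05.

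The 4 called genes and 1 further leukocyte gene are shown first by the sequence around their starts, where the RefSeq promoter table (build GRCm38.p6) holds them. Each window runs from 250 bases before to 50 bases after the start, 5′ to 3′ on the strand of the gene. In the first 2 windows capitals mark GAGGAA or, on the other strand, TTCCTC. These are letters bound by PU.1, the ETS-family factor of macrophages and other blood cells. The windows are those of Pf4 (chr5:90772185-90772484, + strand) and Laptm5 (chr4:130913066-130913365, + strand).

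Pf4: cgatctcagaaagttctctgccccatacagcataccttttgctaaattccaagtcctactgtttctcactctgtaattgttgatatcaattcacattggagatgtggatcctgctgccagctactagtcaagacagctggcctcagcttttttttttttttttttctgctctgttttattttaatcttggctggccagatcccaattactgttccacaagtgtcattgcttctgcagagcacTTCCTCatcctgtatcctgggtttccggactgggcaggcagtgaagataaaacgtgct

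Laptm5: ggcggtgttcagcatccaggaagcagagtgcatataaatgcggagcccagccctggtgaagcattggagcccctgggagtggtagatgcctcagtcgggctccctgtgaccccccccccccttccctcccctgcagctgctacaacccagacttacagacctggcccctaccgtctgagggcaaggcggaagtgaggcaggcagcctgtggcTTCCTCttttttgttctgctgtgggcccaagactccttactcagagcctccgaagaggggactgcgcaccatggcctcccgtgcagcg

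Each of the 2 windows holds 1 match. Of the 21 macrophage and leukocyte markers tested, 14 had a window in the table and 10 of these, 71.4%, held the letters in at least 1 window. The letters were held by 28.3% of all 32851 windows and by 31.3% of all genes. The match is a description of the letters and not evidence of binding.

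The windows of Lyz1 (chr10:117292819-117293118, − strand) and Lyz2 (chr10:117282223-117282522, − strand), neighbouring lysozyme genes, are shown to make plain how alike the 2 copies are. Capitals mark runs of at least 10 bases that are identical at the same position.

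Lyz1: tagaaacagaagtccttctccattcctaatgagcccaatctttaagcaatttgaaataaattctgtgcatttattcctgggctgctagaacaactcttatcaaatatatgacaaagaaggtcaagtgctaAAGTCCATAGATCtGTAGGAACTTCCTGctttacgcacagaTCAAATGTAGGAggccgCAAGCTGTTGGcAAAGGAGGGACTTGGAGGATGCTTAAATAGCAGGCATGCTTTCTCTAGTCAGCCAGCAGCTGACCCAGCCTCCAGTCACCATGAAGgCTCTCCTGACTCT

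Lyz2: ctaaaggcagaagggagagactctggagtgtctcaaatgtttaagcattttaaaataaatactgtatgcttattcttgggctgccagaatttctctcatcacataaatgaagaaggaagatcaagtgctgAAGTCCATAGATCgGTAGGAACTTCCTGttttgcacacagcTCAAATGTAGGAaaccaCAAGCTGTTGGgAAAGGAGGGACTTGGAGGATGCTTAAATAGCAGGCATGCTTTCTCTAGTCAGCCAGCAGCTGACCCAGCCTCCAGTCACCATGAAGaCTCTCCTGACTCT

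Without gaps, 201 of 300 positions were identical (67.0%), 149 of them in 6 such runs, of which the longest was 86 bases. Of the 3 Lyz1 probe sets, the 2 of higher signal are of the type that can also match related transcripts. The signal of the 2 lysozyme genes may therefore be shared, and they are best counted as 1 observation.

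Pf4 encodes platelet factor 4, a chemokine made by megakaryocytes and by macrophages. It stood at 8.74 and 7.50 in the wild-type hypoxic arrays and at 7.47 and 5.84 in the knockout arrays of the first and second set. Both knockout arrays were below both wild-type arrays, although the first-set knockout and the second-set wild type almost met. Pf4 fell by 1.27 and 1.66 within the sets (mean -1.465 ± 0.131, 2.76-fold lower, adjusted p = 0.0194). In the normoxic arrays its difference was nearly the same, at -1.34 and -1.61.

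Lyz2, the lysozyme of macrophages, stood at 9.55 and 8.52 in the wild type and at 8.63 and 7.33 in the knockout. It fell by 0.92 and 1.19 within the sets (mean -1.055 ± 0.099, 2.08-fold lower, adjusted p = 0.0194). The knockout array of the first set was above the wild-type array of the second, so the genotypes were separate only within a set. Lyz1 stood at 10.41 and 9.01 in the wild type and at 9.40 and 7.89 in the knockout, and fell by 1.01 and 1.12 (mean -1.065 ± 0.100, adjusted p = 0.0194). A further Lyz1 probe set, of lower signal, differed by -0.96 and -1.07, and the third, below the filter at a mean of 3.17, by -0.20 and -0.17.

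Itga6 encodes integrin alpha 6, a subunit of laminin receptors found on epithelial, endothelial and other cells. It stood at 9.94 and 9.53 in the wild type and at 8.98 and 8.67 in the knockout, with no overlap between the genotypes. It fell by 0.96 and 0.86 within the sets (mean -0.91 ± 0.098, 1.88-fold lower, adjusted p = 0.0403). Its second probe set differed by -1.14 and -1.01. In normoxia its differences were -0.60 and -0.29 and did not pass the test (adjusted p = 0.349). The interaction was -0.465 ± 0.138 and did not pass (adjusted p = 1).

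These 4 calls depended on the model, on the normoxic arrays and on single arrays. No gene was called without the set as a block, with the set as a random block, or without the trend of the variance. When the 4 hypoxic arrays were fitted alone no gene was called, with the set as a block (488 genes at an unadjusted p under 0.05) or without it. Of the 8 fits that left out 1 array, 7 called no gene, and the one without knockout normoxia replicate 2 called Csf1r, Laptm5, Lyz1, Lyz2 and Pf4. The adjusted p over those 8 fits ran from 0.0482 to 0.323 for Pf4 and Lyz2, from 0.0482 to 0.384 for Lyz1 and from 0.0627 to 0.704 for Itga6.

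**Figure D1:**
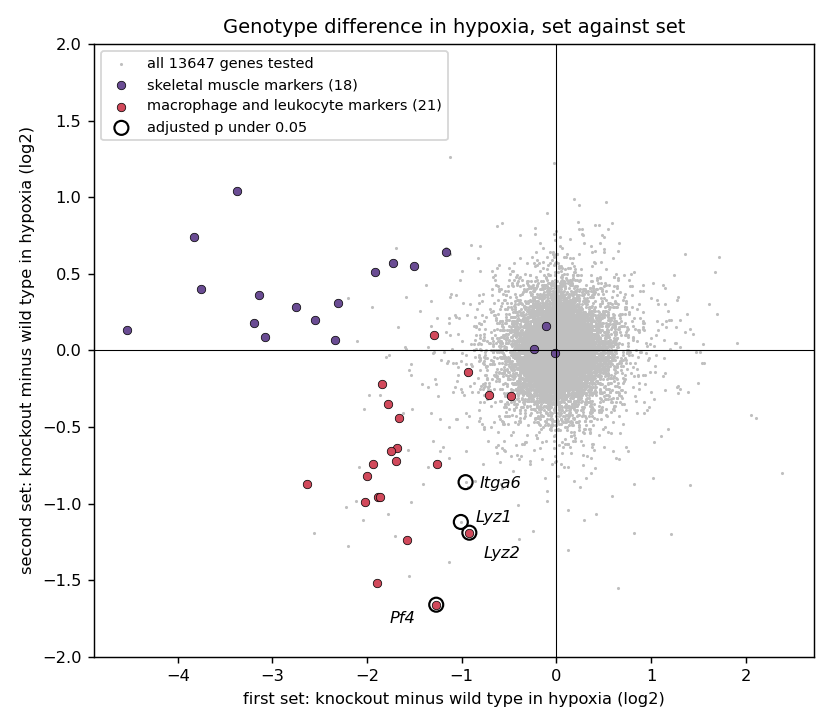
Knockout minus wild type in hypoxia for each gene, first set on the horizontal axis and second set on the vertical axis, both in log2. Most genes form a round cloud at 0, macrophage and leukocyte markers lie low in both sets, and skeletal muscle markers lie far to the left at second-set values near or above 0.

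Across all genes the differences of the 2 sets were nearly uncorrelated. Genes stood lower in both sets in 3321 cases (24.3%) and higher in both in 3353 (24.6%), so that 49.0% had the same sign. Pearson's r between the within-set differences was 0.072 across genes, which are not independent replicates. The spread of the differences was wider in the first set (SD 0.31) than in the second (SD 0.194). A difference of at least 1 was found for 188 genes in the first set, 121 of them lower, and for 26 genes in the second, 23 of them lower. It was found in both sets, with the same sign, for 12 genes, all lower in the knockout: Clec4d, Csf1r, Fermt3, Gpm6a, Il33, Laptm5, Lcp1, Lyz1, Mmp12, Ms4a6b, Ms4a6d and Pf4. For 3 genes, Car3, Cxcl3 and Myl1, the signs were opposite. At a difference of at least 0.5 there were 55 genes lower and 16 higher in both sets, and 42 of opposite sign.

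The 15 lowest genes by the weaker of their within-set differences were mostly leukocyte genes. Laptm5, a lysosomal membrane protein of blood cells, stood at 8.26 and 6.47 in the wild type and at 6.36 and 4.95 in the knockout (-1.90 and -1.52, adjusted p = 0.497). Of its 5 probe sets, 2 of lower signal had differences of opposite sign between the sets or above 0 in both. Fermt3, the kindlin of blood cells that activates integrins, differed by -1.56 and -1.47 (adjusted p = 0.206), but its probe set of next lower signal by 0.01 in each set. The second-set knockout value of Fermt3, 4.11, lay below the filter on low signals (4.17). Csf1r, the receptor that macrophages need for growth, stood at 9.54 and 8.02 in the wild type and at 7.96 and 6.78 in the knockout (-1.58 and -1.24, adjusted p = 0.206). Its 2 probe sets of lower signal differed by -1.10 and -0.33 and by -0.51 and -0.03. Lcp1, the actin bundler of leukocytes, differed by -2.20 and -1.28 (adjusted p = 0.398), with a second-set knockout value of 4.19, just above the filter. In each of these 4 genes both knockout arrays were below both wild-type arrays, which held for 7.79% of all genes. Since the genes were ranked by their within-set falls, this separation follows in part from the ranking.

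Further down the same ranking stood Ms4a6d (-1.71 and -1.21) and Ms4a6b (-2.04 and -1.11), members of a family of leukocyte membrane proteins. Clec4d, a lectin receptor of myeloid cells, differed by -1.78 and -1.07. Mmp12, the macrophage elastase, differed by -2.22 and -1.02. Ptprc, the pan-leukocyte phosphatase CD45, stood at 6.33 and 4.52 in the wild type and at 4.31 and 3.53 in the knockout. Fcgr3, an immunoglobulin receptor, differed by -1.54 and -0.99, and C3ar1, the receptor of complement C3a, by -2.12 and -0.98. The C3ar1 probe set of next lower signal differed by -1.10 and -0.18. None of these 7 passed the test. Second-set knockout values of Ms4a6d (3.98), Ms4a6b (3.99) and Ptprc (3.53) lay below the filter (4.17). The second-set differences and ranks of these genes, as of Fermt3, rest on such low values. The places of Fermt3, Ms4a6d and Ms4a6b among the 12 genes above rest on them too.

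Among the 15 lowest, 2 genes are not known as leukocyte markers. Gpm6a, a membrane glycoprotein best known from neurons, stood at 6.69 and 5.20 in the wild type and at 4.13 and 4.01 in the knockout (-2.56 and -1.19, adjusted p = 0.376). Both knockout values are below the filter on low signals (4.17), which the gene passed through its wild-type arrays, so the size of its differences, its rank and its place among the 12 genes above rest on values under it. Il33, an alarmin cytokine of stromal and lining cells, stood at 5.55 and 6.24 in the wild type and at 4.41 and 4.86 in the knockout (-1.14 and -1.38, adjusted p = 0.338). In both genes the 2 knockout arrays were below the 2 wild-type arrays, as in 7.79% of all genes.

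The list of macrophage and leukocyte markers, which was chosen with earlier results of these data known, held 23 genes, of which 21 were tested and Aif1 and Itgam were below the filter. In hypoxia 20 of the 21 stood lower in the knockout in both sets, against 24.3% of all genes, and none higher in both. Called were 2, Pf4 and Lyz2, both lost without the block, with a random block or without the trend, and 18 were lower at an unadjusted p under 0.05, against 2.73% of all genes. The median was -1.205 (-1.70 in set 1, -0.74 in set 2), against a median of 0.00 over all genes in either set. Cx3cr1, the fractalkine receptor, was the exception to the common direction, at -1.29 and 0.10, and Cd68 (-0.93 and -0.14) and Msr1 (-0.48 and -0.30) had the other unadjusted p-values above 0.05. The genes named for such an exception here and below were picked after their values were seen.

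Mpeg1, the pore protein of macrophages, had the lowest mean of the list, at 8.22 and 6.39 in the wild type and 5.58 and 5.52 in the knockout. C1qa, a chain of complement C1q made by macrophages, stood at 7.54 and 5.81 in the wild type and at 5.68 and 4.85 in the knockout (adjusted p = 0.415). Tyrobp, a signalling adaptor of myeloid cells, stood at 7.71 and 6.16 against 5.82 and 5.20 (adjusted p = 0.497). The wild-type array of the first set was the highest for each of these genes. The mean level of the list was 7.30 and 6.03 in the wild-type hypoxic arrays and 5.72 and 5.30 in the knockout ones, so the group means did not overlap. Of the 21 members 17 had both knockout arrays below both wild-type arrays, which held for 7.79% of all genes. In normoxia it was 7.79 and 6.22 against 5.70 and 5.36, and the median difference there was -1.49. In bulk RNA, fewer cells of a type and less RNA per cell cannot be told apart. The part that macrophage content plays in the other differences was not tested.

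**Figure D2:**
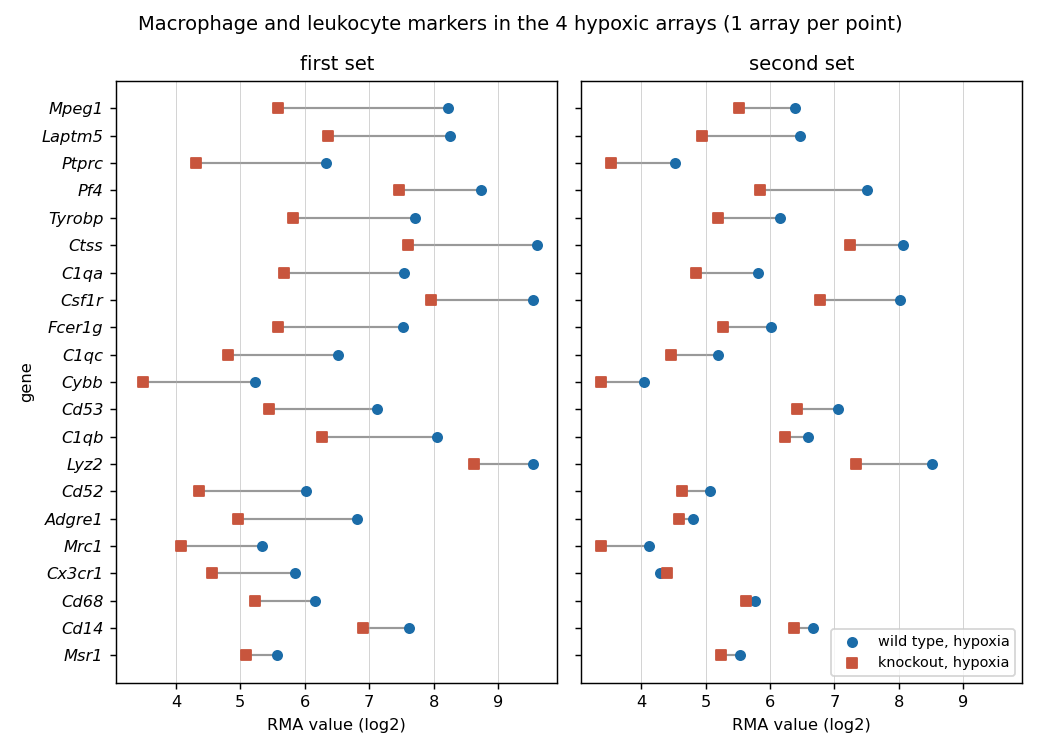
RMA values (log2) of 21 macrophage and leukocyte markers in the hypoxic arrays, first set on the left and second set on the right, ordered by their mean difference. Each point is 1 array and each bar joins wild type and knockout of a set: all 21 knockout points lie lower in the first set and 20 of 21 in the second, Cx3cr1 being the exception.

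Skeletal muscle genes made the widest differences of the first set and no such difference in the second. Myh3, the embryonic myosin heavy chain, stood at 8.35 in the wild-type array of the first set, at 3.81 in its knockout partner, and at 3.87 and 4.00 in the wild-type and knockout arrays of the second set. Myog, the myogenic factor myogenin, stood at 7.96 and 4.20 in the first set, and the second-set pair at 3.93 and 4.33. Actc1, the cardiac actin also made in embryonic muscle, stood at 9.58 and 6.38, then at 6.78 and 6.96. Only the first-set wild-type array was high. The list held 24 genes, of which 18 passed the filter on their mean signal over all arrays. Such a filter can keep genes that were high only in the first-set wild type. Myh3 passed in this way: its other hypoxic values lay below the filter, so its second-set difference lies between such low signals. With no filter the list median over both sets was -0.72 in place of -1.15. All 18 tested members were lower in the first set (median -2.445), and 17 of 18 were higher in the second (median 0.295). Ckm alone was lower in both, by 0.01 and 0.02. None had an unadjusted p under 0.05, and the list median of -1.15 became -0.147 and -0.0942 when wild-type or knockout hypoxia replicate 1 was left out, and -1.94 and -2.10 when wild-type or knockout hypoxia replicate 2 was.

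The normoxic wild-type array of the first set was high as well, with a mean muscle level of 8.09 beside 8.03 in its hypoxic partner, against 5.52 to 6.0 in the other 6 arrays. Results that rest on the first set alone therefore move with the muscle genes, whose part in them was not tested. Of other cell types, endothelial markers had a median of -0.03 (10 tested), epithelial 0.06 (16), adipocyte 0.12 (7) and erythroid -0.02 (3). Neural and glial markers split as the muscle genes did: 11 of 12 were lower in the first set (median -0.205) and 9 of 12 higher in the second (median 0.06). Flt1, a VEGF receptor of endothelial cells, was lower by 0.51 and 0.48 within the sets (adjusted p = 0.536), and its 3 further probe sets were lower in both sets too.

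**Figure D3:**
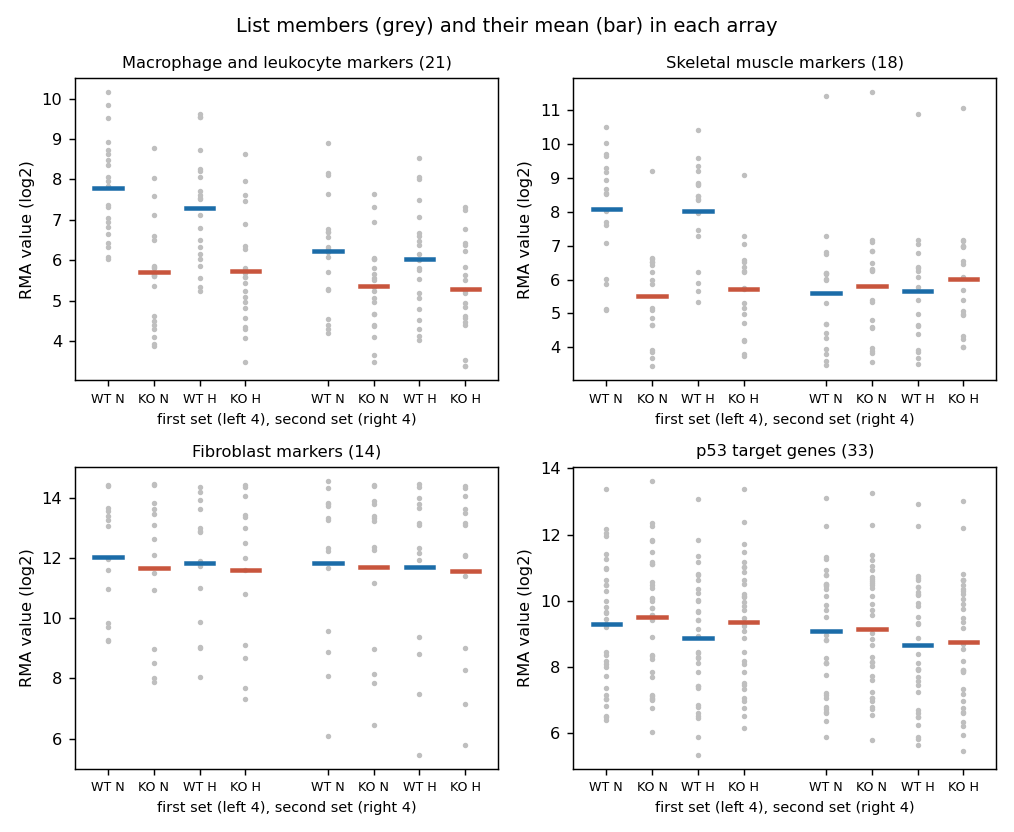
RMA values (log2) of the members of 4 lists in each of the 8 arrays (N normoxia, H hypoxia), with the list mean as a bar, blue for wild type (WT) and red for knockout (KO). Macrophage means are lower in the knockout of every pair, muscle means are high only in the 2 wild-type arrays of the first set, and fibroblast means lie between 11.57 and 12.02 throughout.

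None of the HIF pathway's own components passed the test in hypoxia. Hif1a, the main oxygen-labile subunit, stood at 11.71 and 12.17 in the wild type and 11.65 and 12.15 in the knockout (-0.04 ± 0.059, adjusted p = 0.947). Epas1, which encodes HIF-2 alpha, differed by 0.37 and -0.04, and Arnt, the constant partner, by -0.31 and -0.13 (adjusted p = 0.881). Egln1 stood at 10.76 and 11.05 in the wild type and at 10.58 and 11.09 in the knockout, and Egln3 at 10.58 and 10.55 against 10.12 and 10.40. The Egln1 difference was -0.07 ± 0.099. Both knockout arrays of Egln3 were below both wild-type arrays, by 0.46 and 0.15 within the sets (-0.305 ± 0.283, adjusted p = 0.915). The SE of Egln3 was 0.104 when the 4 hypoxic arrays were fitted alone with the set as a block, where it did not pass either (adjusted p = 0.879). Of the 11 genes of this list, 5 were lower and 1 higher in both sets, against 24.3% and 24.6% of all genes.

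HIF target genes stood slightly lower in the hypoxic knockout as a list. The list was chosen with earlier results of these data known. Choosing members by their rise in these wild-type arrays would by itself lower the hypoxic difference and raise the normoxic one. Whether that played a part was not tested. Of 57 genes 54 were tested. In both sets 28 of them were lower and 5 higher, against 24.3% and 24.6% of all genes. None was called, 8 were lower at an unadjusted p under 0.05 (2.73% of all genes were) and none higher. The median was -0.12, or -0.115 and -0.095 within the sets, and became -0.07 when the probe sets of a gene were averaged. The windows around the starts of Slc2a1 (chr4:119108495-119108794, + strand) and Ero1a (chr14:45318523-45318822, − strand) show the letters that HIF binds, with ACGTG or, on the other strand, CACGT in capitals.

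Slc2a1: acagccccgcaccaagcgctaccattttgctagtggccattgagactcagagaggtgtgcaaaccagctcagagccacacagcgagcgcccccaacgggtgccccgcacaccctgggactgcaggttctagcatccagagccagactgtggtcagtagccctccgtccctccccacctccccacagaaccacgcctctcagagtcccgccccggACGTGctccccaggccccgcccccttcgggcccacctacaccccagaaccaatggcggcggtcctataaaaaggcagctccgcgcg

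Ero1a: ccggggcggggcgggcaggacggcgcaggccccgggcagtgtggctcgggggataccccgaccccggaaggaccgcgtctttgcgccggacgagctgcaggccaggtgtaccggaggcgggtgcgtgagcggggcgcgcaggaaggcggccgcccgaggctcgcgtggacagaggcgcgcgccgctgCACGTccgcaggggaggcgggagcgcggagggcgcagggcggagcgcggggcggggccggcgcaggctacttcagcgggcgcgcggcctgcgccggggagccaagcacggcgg

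Each window holds 1 match. Of the 42 tested HIF targets with a window in the table, 29 held the letters in at least 1 window, or 69.0%, against 21.8% of all genes and 19.6% of all windows. Among the macrophage markers 1 of 14 did, namely Pf4, whose window above holds ACGTG near its end in lower case. These matches describe the windows and were not tied to any difference between the genotypes.

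Slc2a1, the glucose transporter GLUT1, stood at 13.17 and 13.26 in the wild-type hypoxic arrays and at 13.05 and 13.12 in the knockout arrays. Its difference of -0.12 and -0.14 within the sets was small beside its rise with hypoxia, of 1.88 in the wild type and 1.495 in the knockout (adjusted p = 0.881 for the genotype). Ero1a, the oxidase that forms disulphide bonds in the endoplasmic reticulum, stood at 11.25 and 11.22 in the wild type and at 11.0 and 10.84 in the knockout. Both knockout arrays were lower, by 0.25 and 0.38 (-0.315 ± 0.077, adjusted p = 0.597), and its 2 weaker probe sets differed by 0.10 and -0.22 and by 0.03 and -0.21. Selenbp1, a selenium-binding methanethiol oxidase, had the lowest value of the list. It stood at 6.19 and 5.27 in the wild type and at 5.05 and 4.57 in the knockout (-1.14 and -0.70, adjusted p = 0.376), after a rise with hypoxia of 1.545 in the wild type and 1.04 in the knockout.

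Slc2a3, the high-affinity glucose transporter GLUT3, stood at 9.53 and 8.38 in the wild type and at 8.72 and 7.94 in the knockout (-0.81 and -0.44, adjusted p = 0.679). Vldlr, a lipoprotein receptor, differed by -0.11 and -0.41, and 4 of its 5 further probe sets were lower in both sets. The remaining members at an unadjusted p under 0.05 were Ndufa4l2, a HIF-induced subunit-like protein of mitochondria (-0.63 and -0.67), Ndrg1 (-0.75 and -0.16), Stc2 (-0.83 and -0.27) and Higd1a (-0.18 in each set). The second probe set of Higd1a differed the other way, by 0.12 and 0.04. The adjusted p-values of these 8 ran from 0.376 to 0.881. Hk2, the first enzyme of glycolysis, differed by -0.13 and -0.25, and the median of 18 glycolysis genes was -0.04, with no member at an unadjusted p under 0.05.

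In normoxia the same list stood on the other side of 0, with a median of 0.095, 26 members higher and 8 lower in both sets, against 21.6% and 31.3% of all genes. Bnip3, the mitophagy receptor, rose in the normoxic knockout by 0.90 and 0.76 (adjusted p = 0.0273), while in hypoxia it stood at 12.96 and 13.14 in the wild type and 12.87 and 13.10 in the knockout. Pdk1, the kinase that shuts pyruvate dehydrogenase, stood higher in normoxia by 0.63 and 0.89 (not called) and in hypoxia lower by 0.24 and 0.04. Its 2 next probe sets were lower in hypoxia in the first set only, at -0.21 and 0.11 and at -0.16 and 0.17. In 11 of the 54 targets the hypoxic difference was below 0 and the normoxic one above 0 in both sets, which held for 3.55% of all genes. The interaction had a median of -0.25 over the list, and 16 members were below 0 at an unadjusted p under 0.05 (1.14% of all genes), none of them called. With hypoxia the list stood higher by a median of 1.31 in the wild type, with 42 members called higher (7.54% of all genes), and of 1.03 in the knockout, with 40 called higher (4.98%). These counts, like the normoxic and interaction ones, carry the limit given above on how the list was chosen.

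**Figure D4:**
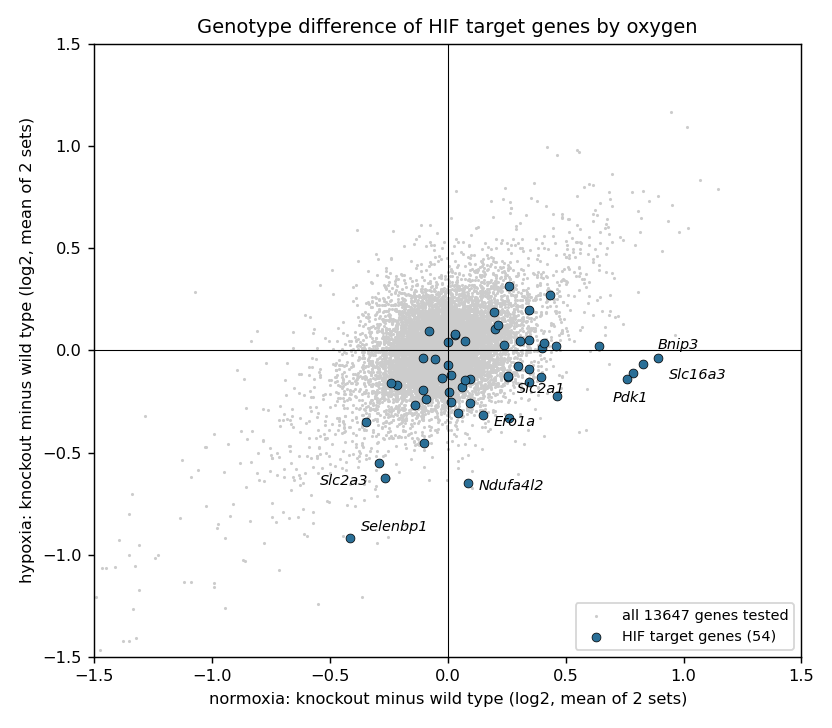
Knockout minus wild type (log2, mean of both sets) in normoxia on the horizontal axis and in hypoxia on the vertical axis, HIF target genes over all genes tested, 26 of which lie outside the axes. Bnip3, Slc16a3 and Pdk1 lie far to the right just below 0, and Selenbp1, Slc2a3 and Ndufa4l2 lie lowest.

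No gene stood higher by at least 1 in both sets. The highest by the weaker of its within-set differences was Col2a1, the collagen of cartilage, at 7.87 and 7.01 in the wild type and 8.53 and 7.71 in the knockout (0.66 and 0.70, adjusted p = 0.206). The arrays of the genotypes overlapped across sets. Lhx9, a homeodomain factor of limb and gonad, stood at 8.36 and 6.12 in the wild type and at 8.95 and 6.95 in the knockout (adjusted p = 0.338). Ogn, the matrix proteoglycan osteoglycin, stood at 8.86 and 8.44 against 9.41 and 9.23 (adjusted p = 0.279), and its second probe set was higher by 0.28 and 0.86. Bmp4, a growth factor of bone and limb, differed by 0.50 and 0.66, and Rspo2, which strengthens Wnt signals, by 0.50 and 0.64. The weaker Rspo2 probe set did not follow (-0.26 and 0.01). Gas6, the ligand of TAM receptors, differed by 0.82 and 0.51.

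The same ranking held Ano1, a calcium-activated chloride channel (0.60 in each set), Chst7, a sulphotransferase of glycosaminoglycans (0.65 in each), and Cbr2, a carbonyl reductase (1.72 and 0.61). It also held Itgbl1 (1.36 and 0.63), the lipase Lipg (0.50 and 0.74), Mogat2, an enzyme of triglyceride synthesis (0.79 and 0.50), Pstpip2 (0.52 and 0.53) and Celf5 (0.52 and 0.97). None of these passed the test, and their adjusted p-values ran from 0.497 to 0.697. The second-set wild-type value of Celf5, 3.64, lay below the filter on low signals (4.17), so its difference there starts from such a value. In 13 cartilage markers the median was 0.165, with 10 higher and 2 lower in both sets, against 24.6% and 24.3% of all genes. Col11a1 differed by 0.55 and 0.24 and Matn3 by 0.36 and 0.39, both matrix proteins of cartilage. The second Col11a1 probe set was not higher in both sets, at 0.57 and -0.02. Sox9, the master factor of cartilage, stood on the other side, at 7.94 and 7.85 in the wild type and 7.52 and 7.50 in the knockout. Col11a2 was the other member lower in both sets (-0.36 and -0.14), with hypoxic values between 3.99 and 4.39, around the filter (4.17).

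Targets of p53, the damage-responsive transcription factor, stood higher as a list. Of 33 tested, 22 were higher and 1 lower in both sets, against 24.6% and 24.3% of all genes. At an unadjusted p under 0.05, 13 were higher (2.78% of all genes were), with none called. The median was 0.21, or 0.41 and 0.09 within the sets. It became 0.128 and 0.102 when wild-type or knockout hypoxia replicate 1 was left out, and 0.318 and 0.355 when wild-type or knockout hypoxia replicate 2 was. Perp, a p53 target of desmosomes, stood at 7.42 and 6.48 in the wild type and at 9.10 and 6.99 in the knockout (1.68 and 0.51, adjusted p = 0.615). Btg2, an antiproliferative factor, stood at 9.99 and 8.89 against 10.62 and 9.17 (adjusted p = 0.512). Sesn2, a stress-induced inhibitor of mTORC1, stood at 8.94 and 8.38 against 9.48 and 8.69, Ddit4l was higher by 0.80 and 0.42, and Fas, the death receptor, by 0.88 and 0.39. Gadd45a was the member lower in both sets. In normoxia the median was 0.115, with 22 members higher and 5 lower in both sets, against 21.6% and 31.3% of all genes.

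**Figure D5:**
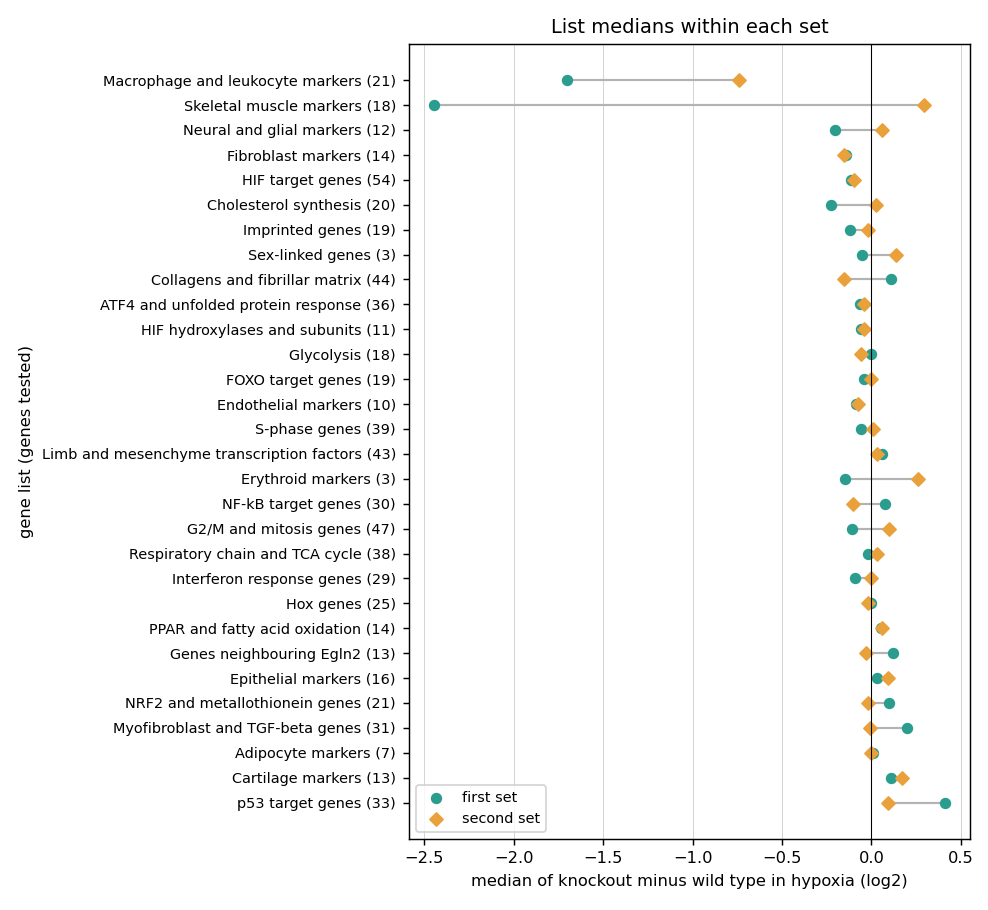
Median knockout minus wild type in hypoxia (log2) for each gene list, circles for the first set and diamonds for the second, with the number of genes tested in brackets. Macrophage markers lie well below 0 in both sets, muscle markers lie at opposite sides of 0, and p53 targets are at 0.41 and 0.09.

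Most of the remaining lists lay near 0. Cholesterol synthesis genes had the same median as the HIF targets, -0.12, but not the same sign in both sets: 18 of 20 were lower in the first set (median -0.225) and 13 of 20 higher in the second (median 0.025). None of them had an unadjusted p under 0.05. Imprinted genes had a median of -0.105, NRF2 and metallothionein genes of 0.065, PPAR and fatty acid oxidation genes of 0.045, FOXO targets of -0.035 and NF-kB targets of -0.0175. Collagens and matrix genes had a median of -0.055, or 0.11 and -0.155 within the sets. Fbn2, a fibrillin of developing tissue, stood at 10.38 and 8.52 in the wild type and at 9.86 and 8.09 in the knockout (adjusted p = 0.302), and its further probe set was lower by 0.88 and 0.44. Mfap2, a partner of fibrillins, was lower by 0.56 and 0.22, but its second probe set differed by -0.03 and 0.23. Myofibroblast and TGF-beta genes had a median of 0.11, or 0.20 and -0.01 within the sets, with Tgfbr1 lower (-0.56 and -0.17) and Tgfb3 (0.55 and 0.17) and the smooth-muscle protein Cnn1 (0.91 and 0.14) higher. Among transcription factors of limb and mesenchyme 15 of 43 were higher and 10 lower in both sets, against 24.6% and 24.3% of all genes. Gata6, a factor of endoderm and heart, stood at 7.18 and 7.72 in the wild type and at 6.60 and 7.08 in the knockout (adjusted p = 0.497). Eya1 (0.46 and 0.70), Irx3 (0.48 and 0.39), Foxc1 (0.52 and 0.43) and Six2 (0.44 in each set), developmental factors, stood higher. No gene of these 3 lists was called.

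Amino-acid and stress genes of the ATF4 list had a median of -0.05. Asns, asparagine synthetase, stood at 11.28 and 11.58 in the wild type and at 10.98 and 11.29 in the knockout (-0.30 and -0.29, adjusted p = 0.506). Slc7a11, the cystine transporter, differed by -0.79 and -0.48, and the mitochondrial enzyme Shmt2 by -0.22 in each set. Dlk1, an imprinted Notch-family ligand, stood at 8.76 and 7.61 in the wild type and at 8.14 and 7.08 in the knockout (adjusted p = 0.497), and the imprinted RNA Airn differed by -0.50 and -0.43. Angptl4, a lipase inhibitor under PPAR control, differed by -0.56 and -0.47. Respiratory chain and TCA cycle genes stood at a median of 0.00, with no member beyond 0.33 in either set. Hox genes stood at 0.02, Hoxb3 being lower by 0.72 and 0.24 and Hoxd8 by 0.22 and 0.25. Their second probe sets were not lower in both sets, at 0.15 and -0.12 for Hoxb3 and 0.22 and -0.21 for Hoxd8.

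Some lists stood apart in normoxia more than in hypoxia. Of 47 mitosis genes 38 were lower in both sets in normoxia and 7 in hypoxia, and of 39 S-phase genes 29 and 11, against 31.3% and 24.3% of all genes. In hypoxia 12 mitosis genes and 8 S-phase genes were higher in both sets, against 24.6% of all genes. The mitosis median was -0.11 in the first and 0.10 in the second set. Higher in both hypoxic sets and lower in both normoxic sets were 10 mitosis and 4 S-phase genes, against 774 of all 13647. The reverse held for 0 mitosis and 2 S-phase genes, against 3.55% of all genes. Of 29 interferon genes 21 were lower in both sets in normoxia and 8 in hypoxia, with medians of -0.355 and 0.005, and 6 were higher in both sets in hypoxia. Of the members with the smallest p-values, Ifi204, a DNA sensor, stood at 5.56 and 6.29 in the wild-type hypoxic arrays and at 4.97 and 5.42 in the knockout (adjusted p = 0.682). Xaf1 was lower by 0.28 and 0.74, and the chemokine Cxcl10 by 0.55 and 0.65, while the GTPase Irgm1 was higher by 0.17 and 0.29. No gene of these lists was called for the interaction. The 13 tested genes among the 50 that neighbour Egln2 had a median of 0.045 in hypoxia. There 4 were lower and 3 higher in both sets, against 24.3% and 24.6% of all genes.

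Control probe sets gave a measure of RNA quality. The Actb control read at its 3′ end stood above that at its 5′ end by 0.73 and 0.47 in the wild-type and by 0.63 and 0.47 in the knockout hypoxic arrays, and the Gapdh control by 0.52 and 0.47 against 0.37 and 0.44. Knockout and wild-type hypoxic arrays correlated at 0.991 and 0.996 within the sets, while arrays of 1 genotype correlated at 0.974 and 0.982 across the sets.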

How the data were processed

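Total RNA of the 8 fibroblast samples, 5 ug each, was labelled with biotin and hybridised to 1 array apiece, per the labels. The values are the authors' deposited table of log2 expression per probe set, made with RMA per the submitters' processing notes; the sources used here give no version of it. No count or depth exists for arrays, and the number of arrays limits the precision.

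Of 45037 probe sets without controls, 34945 carried 1 gene symbol in the platform annotation, 932 several and 9160 none, and only the first were used. They gave 18193 genes, each by its probe set of highest mean, of which 13647 at or above the 25th percentile (log2 4.17) were tested with limma 3.58.1 in R 4.3.3. The fit held 4 groups of genotype and oxygen with the set as a block, eBayes with a trend and Benjamini-Hochberg adjustment over all genes tested. It left 3 residual degrees of freedom, with 5.22 added by the prior. Called means an adjusted p under 0.05. The code was tested on simulated data.

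Titles place each array in a set, and the arrays were paired within it. The second-minus-first differences of the 4 groups correlated at 0.71 to 0.85 over 6 pairs of groups. A difference shared by all arrays of a set would give such correlations. They therefore cannot show that a knockout and a wild-type array of a set are a matched pair.

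Named were the hydroxylases and HIF subunits, the 15 highest and 15 lowest genes by the within-set difference nearer to 0 among those of 1 sign, every called gene and, from each list, as many as 4 members of smallest p. Ndrg1, Ndufa4l2, Higd1a, Stc2, Bnip3, Slc16a3, Gadd45a, Fas, Foxc1, Six2, Myog, Ckm, Col11a2, Tyrobp, Mpeg1, Cx3cr1, Cd68, Msr1, Vim, Col1a2, Car3, Cxcl3, Myl1, Ankrd37, Prelid2, Plod1, Kdm3a and Gbe1 lie outside this rule and were named after their values were seen. The members, lists and rules were chosen with earlier results of these data known. Alternatives were the block (none, random, hypoxic arrays only), the filter, the probe-set rule, the normalization, the eBayes settings and each array left out.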

Additional observations from a re-analysis of the deposited data

Results flagged for a closer look

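Only genes named in the text were searched for opposite signs of the hypoxic and normoxic genotype differences in every pair of arrays. Such signs were found in 11 HIF target genes and in Sesn2. Of these, Bnip3, Slc16a3, Ankrd37, Prelid2, Plod1, Kdm3a and Gbe1 were named after their values were seen. The number found and the share of HIF targets in it therefore follow in part from the choice of names. Lower in hypoxia and higher in normoxia were 3.55% of all genes, and the reverse held for 774 of 13647. The interaction, the hypoxic minus the normoxic difference, passed the adjusted threshold in none of the 12: its adjusted p was 0.827 for Bnip3 and 1 for the other 11. The interaction was -0.895 for Bnip3 (hypoxia -0.09 and -0.04, normoxia 0.90 and 0.76). Pdk1 stood at -0.90, Ankrd37, an ankyrin-repeat protein induced by HIF, at -0.895 and Slc16a3, the lactate exporter MCT4, at -0.925. Prelid2 stood at -0.69, the collagen lysyl hydroxylase Plod1 at -0.59, the glycogen branching enzyme Gbe1 at -0.525 and Ero1a at -0.465. Slc2a1 stood at -0.385, the histone demethylase Kdm3a at -0.38 and Vldlr at -0.355. Sesn2 stood the other way, at 0.54, higher in the hypoxic and lower in the normoxic knockout. The p53 list held 3 such genes among its 33 tested, and the mitosis list 10 among its 47. The second Sesn2 probe set differed by 0.09 and 0.11 in hypoxia. In normoxia that probe set stood at 7.17 and 7.22 in the wild type and at 7.25 and 7.16 in the knockout. The hypoxic side of the pattern was narrow for several of the 12: Slc16a3 differed there by -0.01 and -0.06, and Pdk1 by -0.04 in the second set. The 2 weaker Ero1a probe sets were not lower in the first hypoxic set (0.10 and 0.03). The 2 next Pdk1 probe sets were not lower in the second (0.11 and 0.17).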

How the results depend on the processing

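The 4 calls in hypoxia stayed 4, the same genes, with no filter, a median filter, quantile normalization, median centring and robust eBayes. There were 3 with the mean of probe sets (Itga6, Lyz2 and Pf4) and 3 with every probe set (Lyz1, Lyz2 and Pf4). There were 0 with no replicate block (134 genes at an unadjusted p under 0.05), 0 with the set as a random replicate block (543), 0 with the hypoxic arrays only, with the replicate block (488) and 0 without it (79), and 0 with no trend (754). Leaving out 1 array gave 0 to 5. The 5 normoxic calls became 0 with no replicate block, 0 with the random block, 11 with the median filter, 2 with no trend, 13 with robust eBayes and 0 to 3 without 1 array. The interaction had 0 calls in limma under every alternative run, with 85 to 644 genes at an unadjusted p under 0.05 beside 329.

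The HIF target median moved to -0.07 with the mean of probe sets and to -0.107 with quantile normalization, and ran from -0.136 to -0.103 without 1 array. The macrophage median ran from -1.54 to -0.877 without 1 array. Among 102 named genes, 1165 of 1189 refits other than leave-one-out kept direction and side of the threshold and 22 lost a call, and of 816 leave-one-out refits 774 kept both. With the mean of probe sets Pdk1 (0.0125) and Ckm (0.0575) turned sign. Leaving out 1 hypoxic array turned the sign of some small differences: Egln1 ran from -0.203 to 0.0633, Egln3 ran from -0.658 to 0.0483, Epas1 ran from -0.248 to 0.578, Msr1 ran from -0.838 to 0.0583, Ckm ran from -0.085 to 0.055, Bnip3 ran from -0.153 to 0.0233, Ankrd37 ran from -0.238 to 0.0183, Slc16a3 ran from -0.22 to 0.15 and Gadd45a ran from -0.517 to 0.0167. The cause was not tested. With 2 arrays a group, small differences and low-signal probe sets are not resolved.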
